A study of Mus musculus with 6 samples.

Results

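Coenzyme A (CoA) is built and broken down by a small set of enzymes, and the RNA of 10 of their genes was compared between *Hlx* transgenic and wild-type mice in their inguinal white fat (iWAT). The genes were chosen by name and each was found on 1 row of the deposited table, 10 of 19445 gene loci. They are the pantothenate kinases *Pank1*, *Pank2*, *Pank3* and *Pank4*, the later synthesis enzymes *Ppcs*, *Ppcdc* and *Coasy*, and the breakdown enzymes *Vnn1*, *Nudt7* and *Nudt19*. All 10 passed the filter on low values and were tested.

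CoA carries acetyl and fatty acyl groups, so fatty acid oxidation, the citric acid cycle and lipid synthesis all draw on it. Cells make it from pantothenate, vitamin B5. Pantothenate kinase catalyses the first and rate-controlling step and is inhibited by acetyl-CoA, PPCS adds cysteine, PPCDC removes a carboxyl group, and the bifunctional COASY completes the molecule. PANK4 is counted in the kinase family by its sequence but lacks kinase activity in mammals. NUDT7 and NUDT19 cleave CoA in peroxisomes, and VNN1 is a pantetheinase at the cell surface that splits pantetheine into pantothenate and cysteamine. Brown fat burns fatty acids in its many mitochondria to make heat, white fat stores them, and white fat that takes on brown features is said to brown.

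The transgenic group (TG) carried *Hlx* cDNA, which encodes a homeobox transcription factor, behind the *aP2* (*Fabp4*) promoter, which is active in fat. The wild-type group (WT) were littermates without the transgene. Both groups were 12 weeks old, no treatment was given, and 3 mice of each genotype were sequenced with 1 library per mouse. The transgene was made in embryos of a C57BL/6 and SJL cross and then backcrossed to C57BL/6. RNA levels are given as FPKM, read numbers scaled to transcript length and to library size, so that levels of different genes can be set side by side. Means are given ± SD over 3 mice of a genotype (n = 3).

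*Hlx* itself was at 79.6 to 110 FPKM in the 3 TG mice and at 6.88 to 8.14 FPKM in the 3 WT mice, as the labels say. The summed FPKM of a sample lay between 466059 and 542096, and relative depth, taken from the smallest steps of the FPKM values, lay between 0.692 and 1.41 with WT replicate 3 set to 1. The labels give male mice, yet *Xist*, an RNA of the inactive X chromosome, was at 20.2 to 33.6 FPKM in all 6 samples and 0 of 28 Y chromosome loci had a value above 0 in any sample. This is the pattern of female tissue, and it held for both genotypes. Why it differs from the labels was not tested. That the tissue was fat was borne out by *Adipoq* at 1279 FPKM or more in every sample, which does not tell the depot. The summed level of 5 skeletal muscle markers was 562 FPKM in TG replicate 2 and between 7.14 and 120 FPKM in the other 5 samples, and that of 5 macrophage markers was 345 to 490 FPKM in TG and 732 to 932 FPKM in WT, so those values are given again beside results that they touch. In whole tissue, fewer cells of a type and less RNA per cell cannot be told apart.

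In TG iWAT 5 of the 10 genes rose, 1 fell and 4 did not pass the test. *Pank1*, *Ppcs*, *Coasy*, *Nudt7* and *Nudt19* were higher, with ratios of mean FPKM between 1.48 and 8.56, and *Pank3* was lower, with a ratio of 0.493. Among all 11692 loci tested, 11.6% were higher and 7.03% lower at an adjusted p under 0.05, or 18.6% in either direction (limma on log2(FPKM + 1), Benjamini-Hochberg adjustment over all loci). The median log2 fold change of the 10 genes was 0.38, against -0.01 for all loci. At 9 of the 10 genes the groups did not overlap, a pattern seen at 42.9% of all tested loci. The smallest two-sided p of an exact permutation test over 6 mice is 0.1, which each of these 9 genes reached. The rises of *Pank1* and *Nudt7* and the fall of *Pank3* were called whichever mouse was left out. The number of genes called higher was 2 without TG replicate 1, 4 without TG replicate 2, 3 without TG replicate 3, WT replicate 2 or WT replicate 3, and 5 without WT replicate 1.

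**Figure D1:**
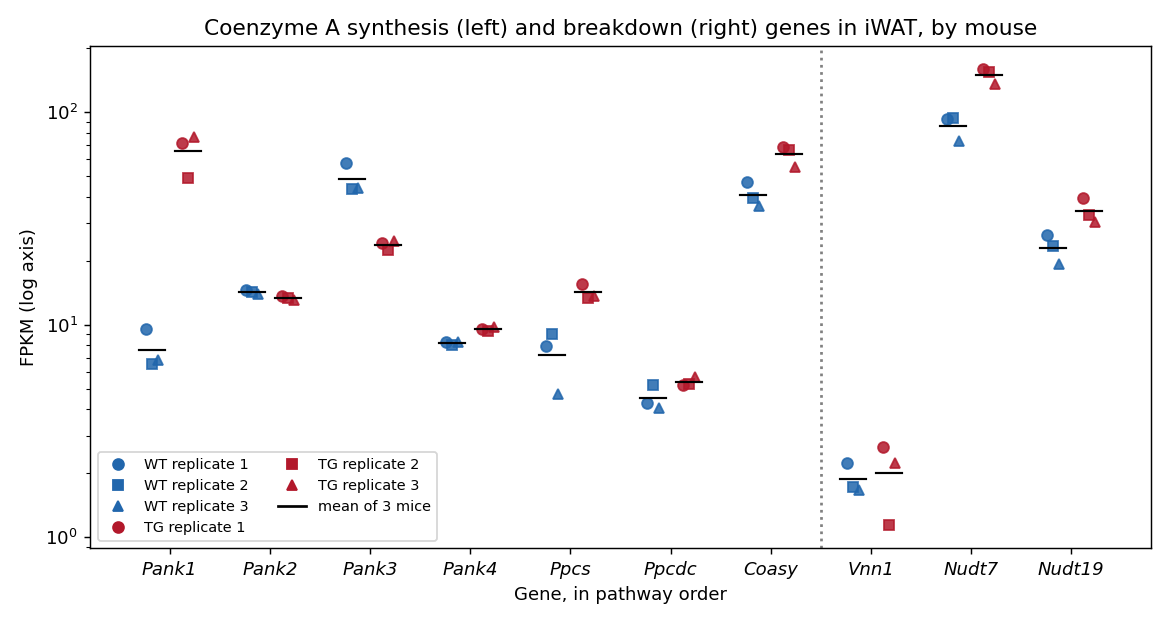
FPKM on a log axis for the 10 CoA genes in 3 WT (blue) and 3 TG (red) mice. Symbols mark the replicates and bars the mean of 3 mice. *Pank1* moved from the lower part of the range to just beside *Coasy*, while *Pank3* fell, and only at *Vnn1* do the groups overlap.

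Pantothenate kinase RNA changed most in which gene it came from. *Pank1* had 71.4, 49.0 and 76.0 FPKM in TG replicates 1 to 3 and 9.58, 6.53 and 6.83 FPKM in WT replicates 1 to 3. Every TG value was far above every WT value, and TG replicate 2, the sample with the most skeletal muscle marker RNA, had the lowest of the TG values. Mean levels were 65.5 ± 14.4 FPKM in TG and 7.65 ± 1.68 FPKM in WT, 8.56 times, with a log2 fold change of 2.93 (standard error 0.20, 95% confidence interval 2.47 to 3.40, limma adjusted p = 0.000432). Ranked by log2 fold change, it was number 21 from the top of 11692 loci. When a mouse was left out the log2 fold change stayed between 2.82 and 3.13.

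*Pank3*, the kinase gene with the highest level in WT iWAT, moved the other way. It had 57.7, 43.6 and 43.8 FPKM in WT replicates 1 to 3 and 24.2, 22.5 and 24.7 FPKM in TG replicates 1 to 3. The TG mice lay close together and below all WT mice, of which WT replicate 1 was the highest. Mean levels were 23.8 ± 1.16 FPKM in TG and 48.3 ± 8.07 FPKM in WT, with a log2 fold change of -0.98 (standard error 0.12, 95% confidence interval -1.27 to -0.69, limma adjusted p = 0.00295). It was number 162 from the bottom of the 11692 loci.

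*Pank2*, whose human counterpart is mutated in pantothenate kinase-associated neurodegeneration, was nearly level. It had 13.7, 13.3 and 13.1 FPKM in TG and 14.5, 14.3 and 13.9 FPKM in WT replicates 1 to 3. All TG values lay below all WT values, but the gap was small, with a log2 fold change of -0.08 (95% confidence interval -0.24 to 0.08, limma adjusted p = 0.406). *Pank4* had 9.57, 9.33 and 9.71 FPKM in TG and 8.33, 8.03 and 8.32 FPKM in WT. Here all TG values lay above all WT values, with a log2 fold change of 0.19 (95% confidence interval 0.03 to 0.35, unadjusted p = 0.026, limma adjusted p = 0.0924). For *Pank2*, 19.1% of the annotated stretches of 100 bases also occur in *Gm14233* or *Rnf24*. The intervals of *Pank2* and *Pank4* leave no room for a change of the size seen at *Pank1* or *Pank3*.

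The summed FPKM of the 4 *Pank* genes was 119, 94.2 and 124 in TG replicates 1 to 3 and 90.1, 72.4 and 72.9 in WT replicates 1 to 3. The sums thus differed less than *Pank1* did, with 112 ± 15.8 FPKM in TG and 78.4 ± 10.1 FPKM in WT. The share of *Pank1* in this sum was 57.9% ± 5.10 in TG and 9.68% ± 0.851 in WT, and the share of *Pank3* was 21.4% ± 2.14 and 61.4% ± 2.23. In each WT mouse there was 6.02 to 6.67 times as much *Pank3* as *Pank1* RNA, and in each TG mouse 2.18 to 3.08 times as much *Pank1* as *Pank3* RNA. The shares of *Pank2* and *Pank4* were 12.1% and 8.61% in TG and 18.3% and 10.6% in WT. Without *Pank4*, which lacks kinase activity, the share of *Pank1* was 63.3% in TG and 10.8% in WT. These sums and shares are descriptions with no test of their own. Reads of 100 bases can tell the genes apart, since 0 of the 8267 stretches of 100 bases in the annotated *Pank1* transcripts and 0 of 7277 in those of *Pank3* occur in a transcript of another gene.

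**Figure D2:**
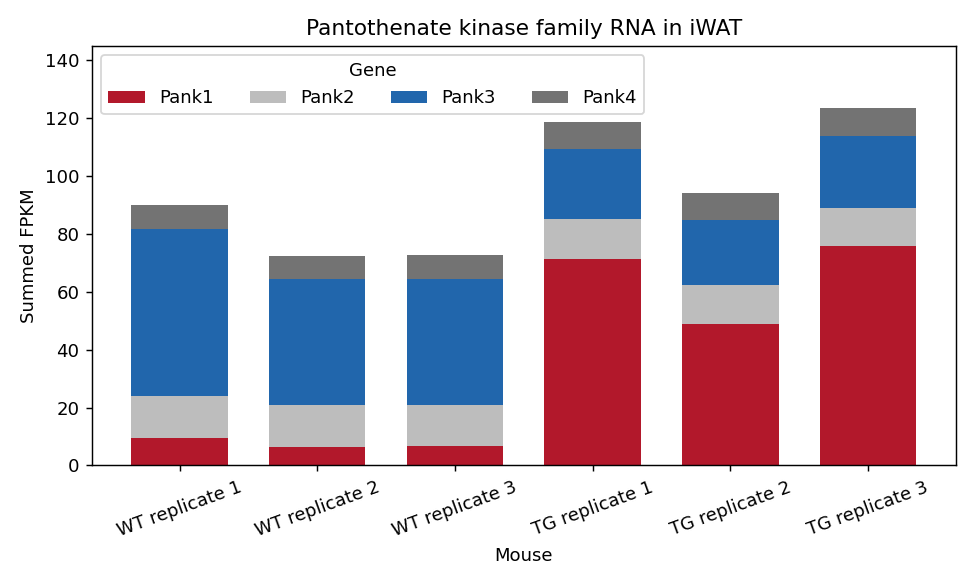
Stacked FPKM of *Pank1*, *Pank2*, *Pank3* and *Pank4* in each of the 6 mice, on an axis from 0. *Pank3* (blue) makes up 60.1% to 64.0% of each WT bar and *Pank1* (red) 52.0% to 61.5% of each TG bar, while *Pank2* and *Pank4* (grey) stay narrow in all mice.

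*Pank1* lies on chromosome 19 of mm10 from 34806940 to 34879455, on the minus strand, and its longest coding transcript has 7 exons. *Pank3* lies on chromosome 11 from 35769484 to 35791285, on the plus strand, also with 7 exons, and *Pank2* on chromosome 2 from 131262495 to 131299188 (GENCODE M21). Each of these 3 genes carries a microRNA hairpin in intron 5 of 6, on the same strand: *Mir107* in *Pank1*, *Mir103-2* in *Pank2* and *Mir103-1* in *Pank3*. The mature 3p forms from RefSeq (GRCm38.p6) are shown because the hosts with opposite changes carry near-identical microRNAs. Capitals mark the seed, bases 2 to 8 from the 5′ end, which is the same in both.
miR-107-3p: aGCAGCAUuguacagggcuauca
miR-103-3p: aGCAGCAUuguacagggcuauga
The only difference between them, counted from the 5′ end with miR-103-3p as the reference, is G22C. The hairpin of *Mir107* lies at chr19:34820687-34820773, that of *Mir103-1* at chr11:35782396-35782481 and that of *Mir103-2* at chr2:131288052-131288137. The rows of *Mir107*, *Mir103-1* and *Mir103-2* are listed at 0 in all 6 samples of this library type, which is not made to capture mature microRNAs. Their levels are therefore not known from these data, and the level of a host RNA does not give them.

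The windows of 250 bases before the start sites of *Pank1* and *Pank3* are printed here because these genes had the largest rise and the only fall of the 10. *Pank1* has a pair of annotated RefSeq starts, and the deposited FPKM does not part the transcripts that begin at each. Capitals mark a TATA box (TATAAA) or a CCAAT box (CCAAT), on either strand. The first *Pank1* window is chr19:34879456-34879705, the other is chr19:34877918-34878167, both on the minus strand, and the *Pank3* window is chr11:35769245-35769494 on the plus strand (RefSeq, GRCm38.p6).
Pank1, upstream start: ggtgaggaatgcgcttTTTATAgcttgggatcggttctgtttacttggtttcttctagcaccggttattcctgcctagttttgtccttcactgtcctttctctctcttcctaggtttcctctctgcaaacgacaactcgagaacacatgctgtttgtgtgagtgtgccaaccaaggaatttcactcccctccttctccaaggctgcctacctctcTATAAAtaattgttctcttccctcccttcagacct
Pank1, downstream start: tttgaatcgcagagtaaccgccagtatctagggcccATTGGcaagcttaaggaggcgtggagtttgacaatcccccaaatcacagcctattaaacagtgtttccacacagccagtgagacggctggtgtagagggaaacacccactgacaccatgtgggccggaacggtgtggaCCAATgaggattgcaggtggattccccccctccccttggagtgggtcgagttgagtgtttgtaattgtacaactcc
Pank3: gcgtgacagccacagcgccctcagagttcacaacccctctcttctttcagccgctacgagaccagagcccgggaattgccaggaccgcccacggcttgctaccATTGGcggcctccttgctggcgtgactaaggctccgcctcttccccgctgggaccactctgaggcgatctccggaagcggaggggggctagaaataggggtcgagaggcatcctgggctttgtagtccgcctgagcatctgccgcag
The upstream *Pank1* window holds TATAAA at -35 on the gene's own strand and on the other strand at -234, a motif in 12.4% of 32851 such windows of all genes. The downstream *Pank1* window and the *Pank3* window hold CCAAT boxes, which are in 33.8% of all windows. The windows also differ in base composition, with 5 and 7 CpG in the *Pank1* windows and 17 in the *Pank3* window, against a median of 6 in all windows. Searched on both strands as well were the nuclear receptor half-site AGGTCA (14% of all windows), a direct repeat of it spaced by 1 base (0.0335%), the ERR element TNAAGGTCA (1.14%, any N, overlapping the half-site), the cAMP response element TGACGTCA (1.55%) and the NRF1 core GCGCATGCG (1.45%). None of these is in the *Pank1* or *Pank3* windows. Windows were at hand for 8 of the 10 genes, and among the others AGGTCA was found at -224 of *Ppcs* and the NRF1 core at -23 of 1 of the windows of *Nudt7*. A match in such a window is a string of letters and was not tested as a binding site.

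Of the 3 later synthesis genes, *Ppcs* and *Coasy* rose and *Ppcdc* did not pass the test. *Ppcs*, whose product joins cysteine to phosphopantothenate, had 15.6, 13.4 and 13.6 FPKM in TG and 7.92, 9.03 and 4.73 FPKM in WT replicates 1 to 3. All TG mice were above all WT mice, and the WT mice were spread widely, with a coefficient of variation of 30.9% against 8.71% in TG. Mean levels were 14.2 ± 1.24 FPKM in TG and 7.23 ± 2.23 FPKM in WT, and the log2 fold change was 0.92 with a standard error of 0.20 (limma adjusted p = 0.023). The adjusted p was 0.0693 without TG replicate 1 and 0.0648 without TG replicate 3.

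*Coasy*, the gene of the last 2 enzymatic steps, had 68.4, 66.1 and 55.4 FPKM in TG and 47.1, 39.3 and 36.2 FPKM in WT replicates 1 to 3. The lowest TG value was above the highest WT value. Mean levels were 63.3 ± 6.95 FPKM in TG and 40.8 ± 5.63 FPKM in WT, and the log2 fold change was 0.62 with a standard error of 0.13 (limma adjusted p = 0.0178). Its call was lost without TG replicate 1, WT replicate 2 or WT replicate 3, where the adjusted p was 0.0533, 0.0586 and 0.0605. *Ppcdc*, the decarboxylase gene between them in the pathway, had 5.21, 5.28 and 5.69 FPKM in TG and 4.30, 5.18 and 4.06 FPKM in WT. The groups nearly touched, since WT replicate 2 lay just under the lowest TG mouse. Its log2 fold change was 0.22 (95% confidence interval -0.02 to 0.46, limma adjusted p = 0.17). Of the *Ppcdc* transcript stretches of 100 bases, 6.18% also occur in other genes.

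**Figure D3:**
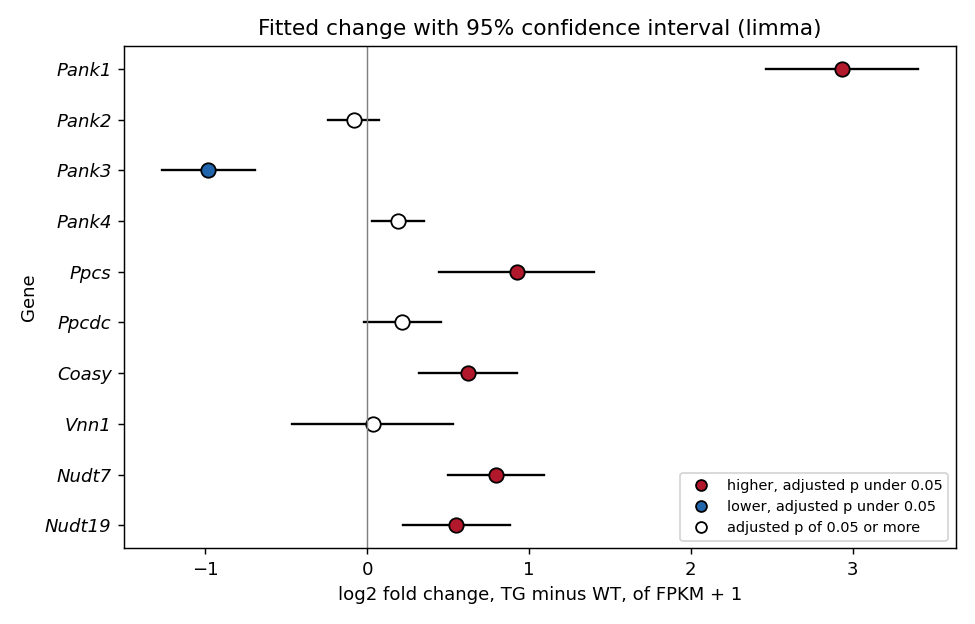
Fitted log2 fold change (TG minus WT, of FPKM + 1) with the 95% confidence interval for each of the 10 genes. Filled points had an adjusted p under 0.05 in limma: *Pank1* stands at 2.93, *Ppcs*, *Nudt7*, *Coasy* and *Nudt19* between 0.55 and 0.92, and *Pank3* at -0.98.

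Both peroxisomal CoA hydrolase genes were called higher, *Nudt19* less stably than *Nudt7*. Of the 7 synthesis genes 3 were called higher and *Pank3* lower, where 11.6% and 7.03% of all tested loci were called. *Nudt7*, the CoA gene with the highest level in both genotypes, had 160, 155 and 136 FPKM in TG and 92.6, 93.6 and 72.8 FPKM in WT replicates 1 to 3. There was a wide gap between the lowest TG and the highest WT mouse. Mean levels were 150 ± 12.8 FPKM in TG and 86.3 ± 11.7 FPKM in WT, 1.74 times, and the log2 fold change was 0.80 with a standard error of 0.13 (limma adjusted p = 0.00749).

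*Nudt19*, known for its high level in kidney, had 39.3, 32.8 and 30.5 FPKM in TG and 26.4, 23.4 and 19.4 FPKM in WT. TG and WT values did not overlap, though the lowest TG mouse was not far above the highest WT mouse. Mean levels were 34.2 ± 4.56 FPKM in TG and 23.1 ± 3.56 FPKM in WT, and the log2 fold change was 0.55 with a standard error of 0.14 (limma adjusted p = 0.036). This was the least stable call of the 5, held in only 8 of 14 other settings. It was lost without any 1 of TG replicates 1, 2 and 3 and WT replicates 2 and 3, with adjusted p of 0.0896, 0.0609, 0.0592, 0.0844 and 0.0967, and with no filter on low values (0.0584). An exon of a gene on the opposite strand, *B230322F03Rik*, overlaps *Nudt19*, and 32.1% of its transcript stretches of 100 bases occur there too, so without strand the reads of that part cannot be told apart. *Nudt7* made up 81.5% ± 1.12 of the summed FPKM of both genes in TG and 78.9% ± 1.11 in WT, so their balance moved little beside the sum, which was 184 ± 16.8 FPKM in TG and 109 ± 15.0 FPKM in WT.

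*Vnn1* was the lowest of the 10 genes in both genotypes. It had 2.65, 1.14 and 2.24 FPKM in TG and 2.24, 1.72 and 1.67 FPKM in WT, and TG replicate 2 had the lowest value of all 6 mice while TG replicate 1 had the highest. Its log2 fold change was 0.03 (95% confidence interval -0.46 to 0.53, limma adjusted p = 0.921, exact permutation test, two-sided p = 0.9), and its sign turned in 4 of the 6 fits that left out a mouse. A pantetheinase gene that is not among the 10, *Vnn3*, was higher than *Vnn1* in every mouse and fell. It had 6.23, 8.87 and 7.60 FPKM in TG and 31.9, 22.0 and 21.5 FPKM in WT, with no overlap, and its log2 fold change was -1.60 with a standard error of 0.18 (limma adjusted p = 0.00207). Macrophage markers were lower in TG in the same samples, 4 of the 5 tested at an adjusted p under 0.05 with a median log2 fold change of -0.75, and their part in the value of *Vnn3* was not tested.

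The order of the levels was much the same in both genotypes apart from the kinases. In WT iWAT it ran *Nudt7*, *Pank3*, *Coasy*, *Nudt19*, *Pank2*, *Pank4*, *Pank1*, *Ppcs*, *Ppcdc* and *Vnn1*. The values of the neighbours *Pank3* and *Coasy* overlapped, as did those of *Pank4* and *Pank1*, *Pank1* and *Ppcs*, and *Ppcs* and *Ppcdc*. In TG iWAT *Pank1* came second, its values overlapping those of *Coasy*, and *Pank3* came next after *Nudt19*. The spread within a genotype was unlike between genes, with coefficients of variation from 2.00% for *Pank4* to 38.9% for *Vnn1* in TG and from 2.09% for *Pank2* and *Pank4* to 30.9% for *Ppcs* in WT. The medians over the 10 genes were 8.62% in TG and 14.6% in WT, against 10.6% and 9.70% over all tested loci.

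Genes that move CoA or its esters between compartments, or act on it further, were set beside the 10. The *Abcd* transporter genes were listed as a family, which brought in *Abcd4*, not a known carrier of CoA or its esters. Of 11 tested, 5 rose, 2 fell and 4 did not pass the test, with a median log2 fold change of 0.41. For this count and those of the lists below, 11.6% of all tested loci were higher and 7.03% lower. *Slc25a42*, which carries CoA into mitochondria, rose, with a mean of 38.3 ± 11.0 FPKM in TG against 9.24 ± 1.44 FPKM in WT, with 49.4, 27.3 and 38.1 FPKM in TG and 10.9, 8.54 and 8.29 FPKM in WT and a log2 fold change of 1.91 (limma adjusted p = 0.00203). The peroxisomal fatty acyl-CoA transporter gene *Abcd3* rose, with a mean of 74.4 ± 3.04 FPKM in TG against 29.6 ± 2.82 FPKM in WT (limma adjusted p = 0.000518). *Slc25a17*, a peroxisomal carrier of CoA, FAD and NAD, had a log2 fold change of 0.56 (limma adjusted p = 0.0131). *Abcd4*, counted among the 5 by its family only, had 0.55 (limma adjusted p = 0.00373). Lower were *Vnn3* and *Abcd2*, the latter with a log2 fold change of -0.43 (limma adjusted p = 0.0377). The call of *Abcd2* was lost with any 1 mouse but TG replicate 1 left out, with an adjusted p up to 0.117. Not called were *Slc5a6*, the vitamin transporter that takes up pantothenate (log2 fold change 0.10, limma adjusted p = 0.619), *Slc25a16*, *Aasdhppt* and *Dcakd*. The mitochondrial CoA hydrolase gene *Nudt8* shares its row with *Doc2g*. That row had 85.9, 55.3 and 64.1 FPKM in TG and 36.4, 32.0 and 36.4 FPKM in WT (log2 fold change 0.93, limma adjusted p = 0.00992), and how much of it is *Nudt8* is not known.

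Acyl-CoA synthetases use CoA to activate fatty acids and acetate. Of 13 tested, 5 rose, 1 fell and 7 did not pass the test, with a median log2 fold change of 0.23. *Slc27a2* was at 11.4 to 20.4 FPKM in TG and 0.0756 to 1.36 FPKM in WT, far apart (log2 fold change 3.09, limma adjusted p = 0.00207). The medium-chain gene *Acsm3*, *Acsl5*, the mitochondrial acetyl-CoA synthetase *Acss1* and *Acsf3*, which activates malonate in mitochondria, had log2 fold changes of 2.18, 1.80, 1.73 and 1.25 (limma adjusted p of 0.0103, 0.000792, 0.000231 and 0.00118). *Acsm5* fell (log2 fold change -0.79, limma adjusted p = 0.012). *Acsl1*, the most abundant of them, was at 687 to 733 FPKM in TG and 538 to 742 FPKM in WT, with overlapping groups (log2 fold change 0.23, limma adjusted p = 0.298).

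Cysteine is the amino acid that PPCS adds, so genes of its supply and use, and of cysteamine, were counted. Of 8 tested, 1 rose, 2 fell and 5 did not pass the test, with a median log2 fold change of -0.20. Over all tested loci 11.6% were higher and 7.03% lower, so the count that rose was close to the share over all loci. *Cdo1*, which oxidises cysteine, fell, with a mean of 635 ± 51.9 FPKM in TG against 1164 ± 105 FPKM in WT, a log2 fold change of -0.87 (limma adjusted p = 0.00621). *Slc3a2*, the shared heavy chain of several amino acid transporters, had a log2 fold change of -0.98 (limma adjusted p = 0.00568), and *Gclm*, a subunit of the glutathione synthesis enzyme, 0.43 (limma adjusted p = 0.0151, or 0.0572 without TG replicate 3). *Ado*, which oxidises the cysteamine that pantetheinase releases, was at 5.30 to 5.73 FPKM in TG and 4.67 to 5.32 FPKM in WT (log2 fold change 0.13, limma adjusted p = 0.31).

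*Pank1* and *Vnn1* are both known in liver as targets of PPARα, a receptor activated by fatty acids. Of PPARα and 8 other of its well-known targets tested, 5 rose and 4 did not pass the test, with a median log2 fold change of 1.00. *Ppara* itself rose, with a mean of 32.6 ± 8.97 FPKM in TG against 4.52 ± 1.84 FPKM in WT, with 27.1, 27.8 and 43.0 FPKM in TG and 6.17, 2.54 and 4.85 FPKM in WT (log2 fold change 2.63, limma adjusted p = 0.00192). *Pdk4*, *Ehhadh* and *Acot2* had log2 fold changes of 3.40, 1.05 and 1.00 (limma adjusted p of 0.000231, 0.0125 and 0.0047). *Angptl4*, *Acot1* and *Cpt1a* had log2 fold changes of 0.49, -0.03 and -0.28 (limma adjusted p of 0.181, 0.962 and 0.397). *Fgf21*, *Cyp4a10* and *Cyp4a14* did not pass the filter on low values.

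Since NUDT7 and NUDT19 act in peroxisomes, the genes of peroxisome assembly were counted too. Of 13 peroxins tested, 3 rose and 10 did not pass the test, with a median log2 fold change of 0.27. Among all tested loci 11.6% were higher. *Pex5*, the import receptor for matrix proteins, *Pex13* and *Pex7* had log2 fold changes of 0.53, 0.46 and 0.27 (limma adjusted p of 0.0203, 0.0149 and 0.0467). The count was 1 without TG replicate 1 and 0 without TG replicate 3, WT replicate 2 or WT replicate 3. *Pex11a* was at 30.5 to 40.3 FPKM in TG and 30.3 to 38.3 FPKM in WT (log2 fold change 0.03, limma adjusted p = 0.873).

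**Figure D4:**
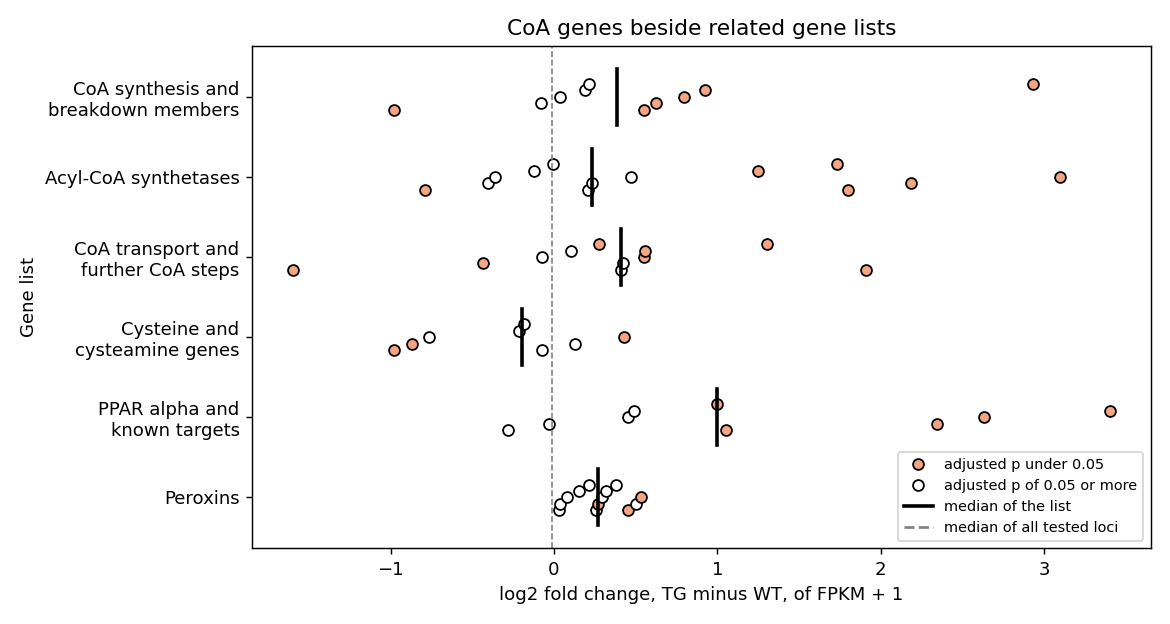
Log2 fold change (TG minus WT, of FPKM + 1) of each tested gene of the 10 CoA genes and of 5 related lists. Filled points had an adjusted p under 0.05 in limma, thick bars are list medians and the dashed line is the median of all tested loci, -0.01. The medians are 0.38 for the CoA genes, 0.23, 0.41, -0.20, 1.00 and 0.27 for the lists from top to bottom.

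Brown adipocyte markers moved in the same samples as the CoA genes. Of 7 tested, 6 rose, among them *Ucp1*, *Cidea* and *Cox7a1*. The other, *Dio2*, was not called, at 1.69 ± 1.39 FPKM in TG and 2.38 ± 1.36 FPKM in WT (log2 fold change -0.37, limma adjusted p = 0.576). The summed level of the 7 was 6127 to 7930 FPKM in TG and 611 to 1051 FPKM in WT. General adipocyte markers, summed over 6 genes, were at 28199 to 33447 FPKM in TG and 23904 to 29610 FPKM in WT. Most of this sum was *Fabp4*, with a mean of 26591 FPKM in TG and 21945 FPKM in WT. The median log2 fold change of the 6 was -0.08, with 3 above 0 and 3 below. Of the 6, 1, *Adipoq*, was called lower. Of 5 endothelial markers 1, *Kdr*, was called higher, and of 7 lymphocyte markers 1, *Ms4a1*, was called lower. All 7 lymphocyte markers had a log2 fold change below 0, with a median of -0.66, and their summed level was 173 to 261 FPKM in TG and 259 to 372 FPKM in WT. The median log2 fold change was -0.17 over 6 fibroblast and -0.34 over 6 epithelial markers. All 5 skeletal muscle markers had a log2 fold change above 0, with a median of 2.19. Of these 5, 0 were called in limma and 1 had an unadjusted p under 0.05, but with the replicate number as a block 5 were called higher. Of the markers in use, *Myh4* was at 0 in WT replicate 1 and all others were above 0 in every sample. The part of each of these cell types in the levels of the CoA genes was not tested. Without TG replicate 2, which had the most skeletal muscle marker RNA, 4 CoA genes were called higher and 1 lower.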

How the data were processed

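RNA of iWAT of 3 TG and 3 WT mice was sequenced as single-end reads of 100 bases from TruSeq v2 libraries. Per the submitters' processing notes, the authors used CASAVA 1.8.2, TopHat2 2.0.9, Bowtie2 2.1.0, Cufflinks 2.2.1 and build mm10, and deposited 1 FPKM value per gene locus and mouse. The annotation and options are not given in the sources used here. Counts were not used, so absolute depth is unknown, and p-values measure the spread between mice. A lower relative depth makes low FPKM values less precise, above all in TG replicates 1 and 3.

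Of 19445 loci, 11692 were tested, those whose mean FPKM was above 1 in TG or in WT, on log2(FPKM + 1) with limma 3.58.1 in R 4.3.3 (lmFit, eBayes with trend, two-sided, Benjamini-Hochberg adjustment, called at an adjusted p under 0.05). On this scale fold changes of weakly expressed genes come out too small. A symbol was read from its own row, the one with the highest mean if there were several, and rows with several symbols entered no list count. Single genes were also tested exactly over 20 arrangements of the mice. Positions and shared stretches of 100 bases come from GENCODE M21, promoters and microRNAs from RefSeq. The locus of *Pank2* in the table spans 477413 bases and bears 9 other rows. Plots were made in Python 3.11.15 (matplotlib 3.10.9).

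The 10 genes, the related lists and the markers were chosen with earlier results of these data known, and the promoter motifs after the values of the genes were seen. All 10 genes are named in the text, and of each list those called, the gene with the largest change in each direction, and further ones picked after their values were seen. Single values of some list genes are not reported here. Alternatives were another pseudocount (0.1), 2 other filters, 2 normalizations, 2 variance models, the replicate number as a block and each mouse left out.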

Additional observations from a re-analysis of the deposited data

How the results depend on the processing

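The fall of *Pank3* and the rises of *Pank1* and *Nudt7* were called in all 14 other settings, and none of *Pank2*, *Pank4*, *Ppcdc* and *Vnn1* in any. The count of CoA genes called higher ranged from 2 to 5 and that called lower was 1 with a mouse left out, where the calls over all loci ranged from 780 to 1295 higher and from 329 to 906 lower. With a mouse left out, log2 fold changes ranged from 0.68 to 1.09 for *Ppcs*, from 0.54 to 0.73 for *Coasy*, from 0.44 to 0.65 for *Nudt19* and from -0.12 to 0.26 for *Vnn1*. With no filter on low values more loci were tested and *Nudt19* (log2 fold change 0.55, adjusted p = 0.0584) was not called. Without *Pank4* the share of *Pank1* was 63.3% in TG and 10.8% in WT. Of the related lists, for which the settings were chosen after seeing the data, the synthetases called lower were 2 with eBayes without trend and the transport genes called lower 1 with no filter. With a mouse left out, the transport genes called lower ranged from 1 to 2, cysteine genes called higher from 0 to 1 and peroxins called higher from 0 to 4. The causes were not tested.

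With the replicate block, 5 CoA genes were called higher and 1 lower, and over all loci 1230 and 656. The block changed no call of the 10 genes. Deviations of same-numbered mice from the genotype means correlated at 0.0129, 0.0344 and 0.0701 over the tested loci. No mouse correlated best with its own number. The highest values were 0.135 for TG replicate 1 with WT replicate 2 and 0.125 for TG replicate 3 with WT replicate 1. For TG replicate 2 the highest was 0.106, with WT replicate 3. Such correlations over 3 mice per genotype cannot tell whether same-numbered mice share a litter or a batch. The labels give only the number. Among the markers, in fits added after seeing the data, the block moved the skeletal muscle genes called higher from 0 to 5, the lymphocyte genes called lower from 1 to 3, the macrophage genes called lower from 4 to 3 and the endothelial genes called higher from 1 to 0. Each gene had 1 row, so summing rows was not run. With 3 mice per genotype, changes as small as those of *Pank4* and *Ppcdc* were not resolved.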
